A study of Mus musculus with 203 samples.

Results

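The effect of house dust mite (HDM) extract on the lung parenchyma of mice that all breathed cigarette smoke (CS) and all received dexamethasone (DEX) was examined in 20 RNA-seq libraries, of 160 that the series holds at 11 weeks and 43 at 3 weeks. The libraries were chosen by their labels alone: 10 labelled HDM.CS.DEX and 10 labelled PBS.CS.DEX, all parenchyma at 11 weeks. The mice were female Balb/C, 18 to 20 weeks old, and no allele or transgene is labelled. HDM was given into the nose on 5 days a week for the first 3 weeks and, in groups taken at 11 weeks, 3 times a week from week 4 to week 11, and controls received phosphate buffered saline (PBS). Smoke was given on 5 days a week for 8 weeks and DEX during week 11, to both groups. They therefore differ in HDM alone, and neither is an untreated control. Each comparison below of this HDM effect with another one used 20 further libraries that it did not share: HDM.CS against PBS.CS parenchyma (no DEX), HDM.AIR.DEX against PBS.AIR.DEX parenchyma (DEX in normal air, with no smoke), and HDM.CS.DEX against PBS.CS.DEX airway. The labels do not say which parenchyma and airway came from the same mouse, or whether libraries came from separate mice. The p-values therefore measure spread between libraries. For each gene that spread was estimated within the 16 groups of all 160 libraries at 11 weeks, airway included, and not within these 20 alone.

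HDM extract carries proteases, lectin-binding sugars and bacterial products, and repeated inhalation is a common way to model allergic asthma in mice. The classical response runs through the type 2 cytokines IL-4, IL-5 and IL-13, which drive IgE, eosinophils and mucus. A parallel response runs through IL-17A and IL-17F, made by T cells and other lymphocytes, which act on epithelium and bring in neutrophils. Cigarette smoke loads alveolar macrophages with lipid and induces the protease MMP12 and, through the aryl hydrocarbon receptor, the enzyme CYP1A1. Dexamethasone is a glucocorticoid. It binds the glucocorticoid receptor, induces genes such as Fkbp5, Tsc22d3 and Zbtb16, represses much cytokine transcription and kills many resting lymphocytes, and steroid resistance is a known feature of IL-17-rich and smoke-exposed airway disease.

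Expression is given as CPM, the estimated reads of a gene scaled to the total of its library after TMM normalization, so levels were compared between libraries and not between genes. A log2FC is the fitted difference of log2 CPM, HDM less PBS, with its standard error (SE) and an adjusted p-value from limma-voom. A gene passed at an adjusted p under 0.05, and was called when its log2FC was also at least 1 or at most -1. All sums of CPM below are over the members of a fixed list.

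Promoters are printed for 3 genes that recur below, to show the sequence next to a transcript start. The first is Il17a, which had the largest rise of any gene named here that is not an immunoglobulin gene. The others are the smoke-related protease gene Mmp12 and the IL-1 receptor antagonist gene Il1rn. Each sequence is the 250 bases upstream of a RefSeq transcript start on GRCm38.p6, plus strand, with motif matches in capitals. The start used for Mmp12 and the one used for Il1rn are each 1 of several in RefSeq, and neither is the first along the chromosome. The printed Mmp12 window lies inside the gene as placed below. Windows of earlier starts are at chr9:7344147-7344396 for Mmp12 and chr2:24336610-24336859 for Il1rn.
Il17a chr1:20730655-20730904: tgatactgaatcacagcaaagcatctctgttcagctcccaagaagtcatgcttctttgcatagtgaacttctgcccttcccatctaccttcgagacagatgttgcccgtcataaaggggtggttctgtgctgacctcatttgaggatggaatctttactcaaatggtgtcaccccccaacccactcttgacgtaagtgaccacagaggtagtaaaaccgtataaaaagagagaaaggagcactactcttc
Mmp12 chr9:7347124-7347373: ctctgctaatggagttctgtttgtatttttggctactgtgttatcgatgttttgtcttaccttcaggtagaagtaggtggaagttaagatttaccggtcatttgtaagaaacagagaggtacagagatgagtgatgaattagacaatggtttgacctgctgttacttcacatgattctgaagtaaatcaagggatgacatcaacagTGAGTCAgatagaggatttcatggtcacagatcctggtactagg
Il1rn chr2:24345041-24345290: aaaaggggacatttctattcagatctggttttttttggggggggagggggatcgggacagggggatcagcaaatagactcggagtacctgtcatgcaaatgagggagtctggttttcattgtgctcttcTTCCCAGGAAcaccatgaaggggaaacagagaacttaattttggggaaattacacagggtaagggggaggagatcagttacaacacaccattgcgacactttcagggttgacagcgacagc
The capitals in Mmp12 match TGACTCA (the AP-1 type) on the other strand, 44 bases before the start. Those in Il1rn match the STAT6 type motif, TTC and GAA with 4 bases between them. The Il17a window held no match to these motifs or to the palindromic motif of the glucocorticoid receptor type, each searched on both strands. The window of the earlier Mmp12 start held no match to any of them either. That of the earlier Il1rn start held TGACTCA but no STAT6 type match. A further Il1rn window, which overlaps the printed one, held the same STAT6 type match. The matches therefore depend on the start chosen. Among windows running from 250 bases before to 50 bases after a start, the STAT6 type motif was in 8.44% of 379 windows of genes called higher with HDM, 5.97% of 67 windows of genes called lower and 5.65% of 16391 windows of all genes tested. TGACTCA was in 5.8%, 8.96% and 4.22%, and the glucocorticoid receptor type motif in 0.528%, 1.49% and 0.372%. The windows cover 320 of the genes called higher, 52 of those called lower and 12926 of all genes. A match is a run of letters and does not show that a factor binds there.

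The total estimated count was 24691993 to 34942423 in the HDM libraries and 23287636 to 37681890 in the PBS libraries. Over the 500 most variable genes the first principal component held 65.24% of the variance and separated the groups, with HDM libraries at 14.2 to 39.8 and PBS libraries at -43.3 to -18.2. No 2 libraries of a group agreed within sampling noise. Parenchyma was labelled as such and carried the alveolar genes: the alveolar type II markers summed to 30800 to 56400 CPM, against 12000 to 37800 CPM in the airway libraries, and cardiac muscle markers to 30.6 to 60.1 CPM against 176.7 to 2180 CPM.

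Some libraries stood apart from their groups. Replicate numbers used here follow the order of the library codes within a group and are not in the labels. HDM replicate 8 has the code X160, and PBS replicates 6, 9 and 10 have X116, X176 and X196. HDM replicate 8 had Fkbp5 at 92.2 CPM, against 34.9 to 46.7 CPM in the other 9 HDM libraries, with Acta2 at 156.8 CPM, Arg1 at 18.8 CPM and Mki67 at 95.4 CPM. PBS replicates 9 and 10 had the glucocorticoid target Tsc22d3 at 274 and 190.3 CPM, against 81.6 to 138.3 CPM in the other 8, with the highest Cyp1a1 (662 and 407 CPM). PBS replicate 6 had Timp1 at 160.1 CPM, Tnc at 164.2 CPM and Arg1 at 12.4 CPM. Leaving out PBS replicates 9 and 10 moved 17 counts of list members by over 1.5 times, and each is given below. Other settings moved such counts too, and most of those are not given. Weights for library quality moved 28, a fit of the 20 libraries alone 19 and a fit of the 80 parenchyma libraries 14. A filter at a CPM of 10 moved 14, DESeq2 13 and the run of library codes as a term 6. The PBS libraries with library codes up to 120 had Cyp1a1 at 12.5 to 131.2 CPM and those with later codes at 271 to 662 CPM, while HDM libraries with codes up to 120 had 13.7 to 55.7 CPM and those with later codes 3.61 to 144.8 CPM, 139.8 and 144.8 CPM in the last 2. What the codes stand for is not labelled.

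**Figure D1:**
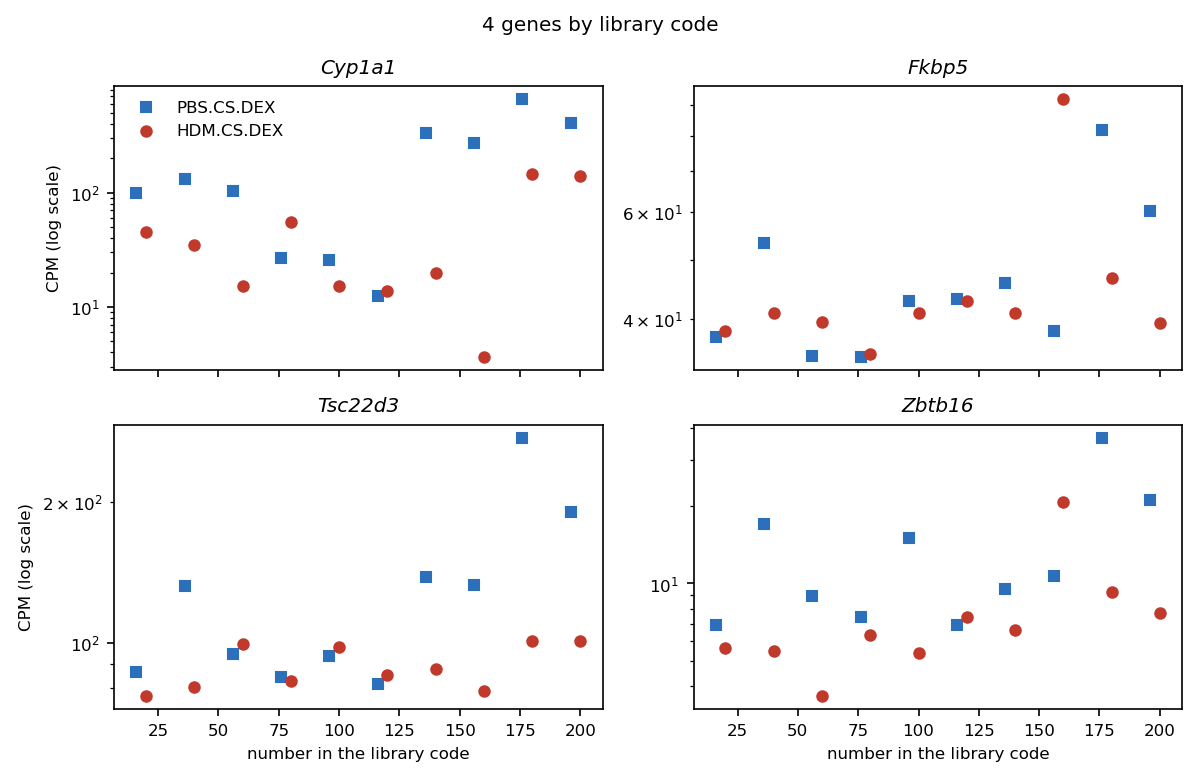
Expression (CPM, log axis) of Cyp1a1, Fkbp5, Tsc22d3 and Zbtb16 in each library against the number in its library code. Squares are the 10 PBS.CS.DEX and circles the 10 HDM.CS.DEX parenchyma libraries. Cyp1a1 was highest at codes over 120 among PBS libraries and at the last 2 codes among HDM libraries, HDM replicate 8 had the highest Fkbp5 (92.2 CPM), and PBS replicates 9 and 10 the highest Tsc22d3 (274 and 190.3 CPM) and Zbtb16 (36.6 and 21.1 CPM).

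With HDM, 611 of 18250 genes were called higher (3.35%) and 78 lower (0.427%), and at the adjusted p alone 2352 passed as higher (12.9%) and 1659 as lower (9.09%). Counts of list members below are to be read beside these shares, and a count near them does not set a list apart. The groups did not overlap for 438 genes with the HDM libraries on the upper side (2.4%) and for 35 with them on the lower side (0.192%). The called genes held 254 and 3 of these. The genes that rose were led by antibody genes, then by Il17a and Il17f, T cell genes, chemokines, macrophage genes and complement. The genes that fell were fewer and less steep, and included Asgr2, Gria1 and haemoglobin genes. Without PBS replicates 9 and 10, 1554 genes passed as higher and 1021 as lower, and 407 of the 611 and 48 of the 78 calls were made again. All 689 called genes kept their direction in that fit.

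**Figure D2:**
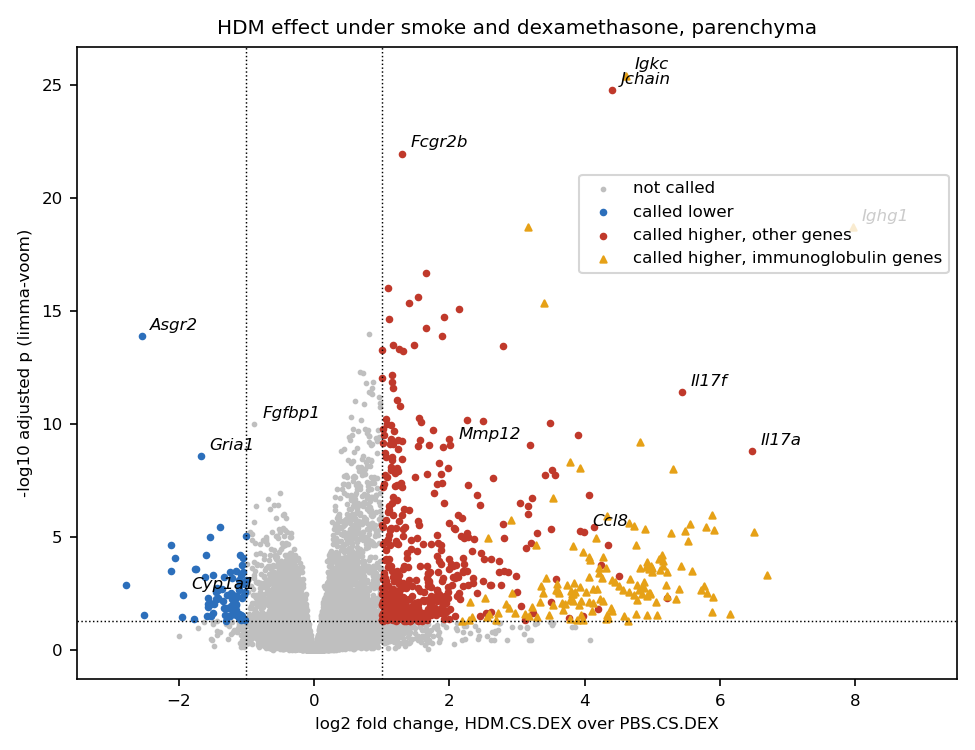
Volcano plot of the 18250 genes tested: log2FC of HDM.CS.DEX less PBS.CS.DEX parenchyma on the x axis and -log10 of the adjusted p on the y axis, with colours for genes called higher and lower as the key in the plot says. Genes called higher (611) outnumber those called lower (78) and reach larger changes, from Ighg1 at 7.96 to Asgr2 at -2.54 among the genes named.

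Antibody genes rose most. Ighg1 (chr12:113325240-113330523, minus strand), the constant gene of IgG1, was at 457 to 2100 CPM (median 1180) in HDM libraries and 1.16 to 16.0 CPM (median 3.97) in PBS libraries. The groups did not overlap, and the log2FC was 7.96 ± 0.68 (SE, adjusted p = 2.0e-19). Igkc (chr6:70726435-70726966, plus strand), the constant gene of the kappa light chain, was at 423 to 1370 CPM against 11.6 to 61.2 CPM (log2FC 4.61 ± 0.32, adjusted p = 3.9e-26), the smallest p of the comparison. Jchain (chr5:88519809-88527891, minus strand), whose product links IgA and IgM into polymers, was at 374 to 1220 CPM against 12.3 to 55.3 CPM (log2FC 4.41 ± 0.31). Both again had no overlap between groups. Ighg2b rose by 5.27, Ighm by 3.39 and Igha by 3.16 on the log2 scale, each with no overlap between groups.

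Of the immunoglobulin variable, joining and diversity segments and their pseudogenes that were tested, 66.5% were called higher, against 3.35% of all genes, 0 were called lower and 68 were not called. They made up 22.1% of all genes called higher, with a median log2FC of 3.80 and a range from -0.03 to 6.69. The largest was Ighv1-82, at 2.22 to 18.7 CPM against 0 to 0.165 CPM (6.69 ± 1.53), followed by Igkv12-41 (6.5), Ighv14-1 (5.91) and Igkv3-1 (5.89). Of 10 constant genes 9 were called higher. Segments and IgG constant genes resemble each other closely and estimated counts share reads between them, so single segments are uncertain. The sum over all immunoglobulin genes is less exposed to this: it was 1850 to 6940 CPM (median 4240) with HDM and 77 to 291 CPM (median 195.4) with PBS. Ighe, the constant gene of IgE, had 41 counts over 8 HDM libraries and 0 over all PBS libraries. Taking 3 counts over the PBS group as the limit, that is at least 14.2-fold higher. Its adjusted p was 0.048 and did not pass without PBS replicates 9 and 10.

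Of 26 tested genes on the B cell and plasma cell list, 21 passed as higher and 0 lower, 19 of them called, with a median log2FC of 2.19 against 0.017 over all genes. Among plasma cell genes Mzb1, a chaperone of antibody secretion, was at 12.3 to 36.9 CPM against 0.46 to 3.34 CPM (3.90 ± 0.50, adjusted p = 3.0e-10), Tnfrsf17, the BCMA receptor, rose by 3.17, Derl3 by 2.19 and Xbp1, a transcription factor of secretory cells, by 0.29. Of general B cell genes Cd79a, part of the B cell receptor, was at 10.4 to 34.4 CPM against 0.575 to 15.3 CPM (2.06 ± 0.44), so the groups overlapped. When PBS replicates 9 and 10 were left out, 13 of the 26 genes passed. Prdm1, a regulator of plasma cells that other cells also use, had a log2FC of -0.01 (adjusted p = 0.97). In bulk tissue more cells of a type and more RNA per cell cannot be told apart.

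**Figure D3:**
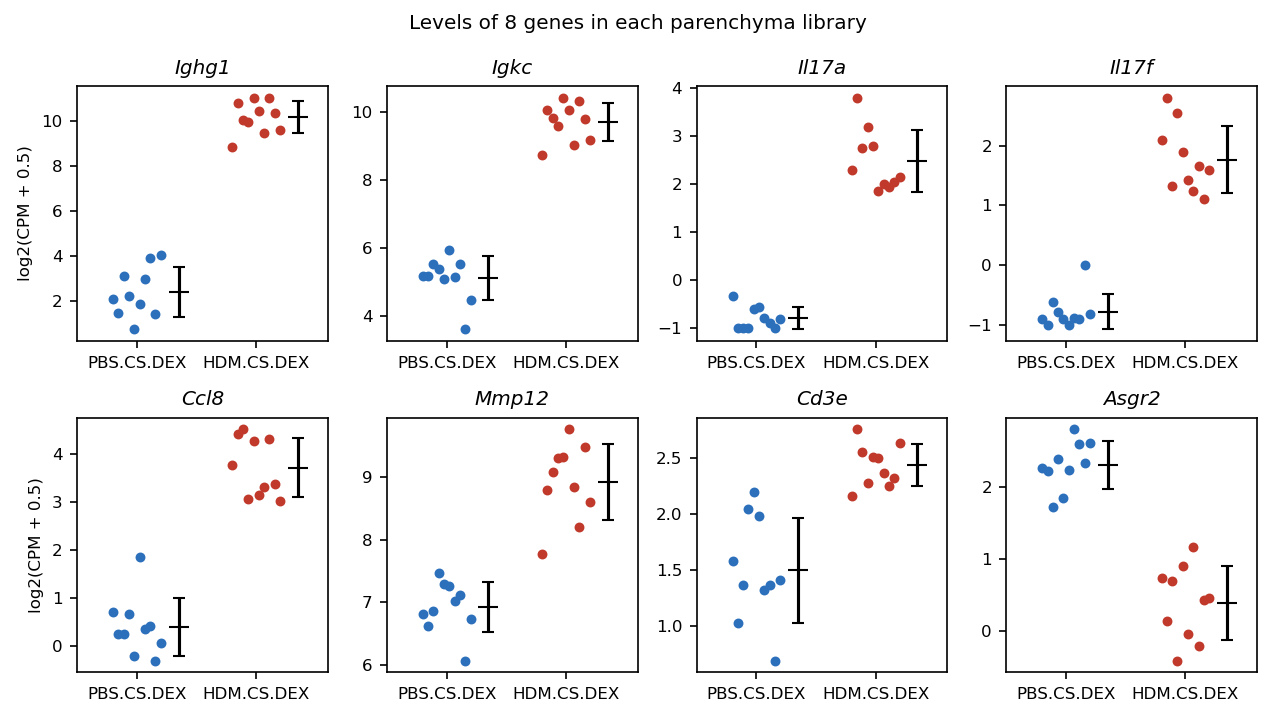
Level of 8 genes in each library, as log2(CPM + 0.5), for PBS.CS.DEX and HDM.CS.DEX parenchyma (points are libraries, bars the mean and SD, n = 10 a group). Ighg1, Igkc, Il17a, Il17f, Ccl8 and Mmp12 show no overlap between groups, nor does Asgr2, which is lower with HDM, whereas 1 of the 10 HDM libraries lies within the PBS range for Cd3e.

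Il17a and Il17f rose further than any other cytokine gene measured in the lists. Il17a (chr1:20730905-20734496, plus strand) was at 3.11 to 13.5 CPM (median 4.17) in HDM libraries and 0 to 0.289 CPM (median 0.0507) in PBS libraries, with log2FC 6.47 ± 0.87 (adjusted p = 1.6e-09). HDM replicate 2 was the highest at 13.5 CPM, and 4 PBS libraries had 0 counts. Over the groups this was 1601 against 23 counts, a depth-adjusted ratio of 72.4 (95% interval 48.1 to 114.6, counting error only). Il17f (chr1:20777146-20790617, minus strand) was at 1.65 to 6.49 CPM against 0 to 0.498 CPM (5.44 ± 0.63, adjusted p = 3.9e-12), and its highest PBS value was in replicate 9. Il21, a cytokine that T cells give to B cells, had 6 counts over the PBS libraries, a ratio of HDM to PBS of 26.2 (11.8 to 72.5), and a log2FC of 4.14 ± 0.73.

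Of the 18 tested neutrophil chemokines and growth factors, the list that holds Il17a and Il17f, 6 passed as higher and 0 lower, while Il22 was too low to be tested. The others were Csf3, the gene of G-CSF (1.84, adjusted p = 0.017), Il1b (0.92), Tnf (0.80) and the receptor gene Cxcr2 (0.77). The neutrophil chemokine genes Cxcl1 (-0.17), Cxcl2 (-0.39) and Cxcl5 (0.45) did not pass. Of 13 neutrophil markers 5 passed as higher, S100a8 among them at 151.3 to 253 CPM against 41.8 to 221 CPM (0.84 ± 0.28, adjusted p = 0.022). Leaving out PBS replicates 9 and 10 left 3.

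Of 22 T cell and regulatory T cell genes, 19 passed as higher and 18 were called, with a median log2FC of 1.37. Cd3e, a chain of the T cell receptor complex, was at 3.97 to 6.27 CPM against 1.11 to 4.08 CPM (1.05 ± 0.35, adjusted p = 0.022), and 9 of 10 HDM libraries lay above all PBS libraries. Cd4, the helper T cell co-receptor, was at 7.74 to 15.3 CPM against 1.69 to 6.83 CPM with no overlap (1.33 ± 0.43). After Il21 the largest rises on the list were in the checkpoint receptor genes Ctla4 (2.34) and Tigit (2.21), the cytokine gene Il10 (2.11), the checkpoint receptor gene Pdcd1 (2.08) and the general T cell genes Cd6 (2.05) and Cd5 (1.97), while Icos, a costimulatory receptor, rose by 1.36. Foxp3, which defines regulatory T cells, was at 0.195 to 1.23 CPM against 0.115 to 0.504 CPM and did not pass (0.83 ± 0.51, adjusted p = 0.24). Without PBS replicates 9 and 10, 11 of 22 passed, Cd3e gave 0.91 (adjusted p = 0.084) and Cd4 1.09 (adjusted p = 0.084). Of 41 T cell receptor segments 8 were called higher, with a median of 1.09.

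Of 16 cytotoxic lymphocyte genes 10 passed as higher, with Ccl5, a chemokine of T and NK cells, at 5.53 to 21.4 CPM against 0.306 to 5.23 CPM (2.73 ± 0.57, adjusted p = 1.1e-04). Xcl1 rose by 2.22, and the NK cell receptor gene Ncr1 by 1.58 with broad overlap, 1.06 to 7.16 CPM against 0 to 6.09 CPM. Gzma, a granzyme gene, did not pass (1.10 ± 0.54, adjusted p = 0.13). When PBS replicates 9 and 10 were left out, 2 of the 16 passed.

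Of 16 tested genes for type 2 cytokines, alarmins and their receptors, 1 passed as higher and 2 as lower, and 0 were called, with a median log2FC of 0.06, while Il9 and Il25 were too low to be tested. Il4 was at 0.0356 to 0.292 CPM against 0.0304 to 0.324 CPM (-0.15 ± 0.43, adjusted p = 0.84) and Il5 at 0 to 0.234 CPM against 0 to 0.151 CPM (0.28 ± 0.47, adjusted p = 0.71). Il13 had 10 counts in 6 HDM libraries against 2 counts in 1 PBS library, a ratio of 5.2 (1.11 to 48.8), with an adjusted p of 0.25. The gene that passed as higher was Il13ra1, a receptor chain for IL-4 and IL-13 (0.33, adjusted p = 5.7e-05), with no overlap between groups. Il1rl1, the IL-33 receptor, fell by 0.60 on the log2 scale (adjusted p = 0.041) and Gata3, the type 2 transcription factor, fell by 0.45 (adjusted p = 0.020). Without PBS replicates 9 and 10, or without HDM replicate 8, 0 of the list passed as lower.

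Genes downstream of type 2 signals were mixed. Itln1, an epithelial lectin, was at 2.27 to 6.4 CPM against 0.108 to 0.647 CPM (3.92 ± 0.70, adjusted p = 5.0e-06), and Tff2, a mucosal trefoil peptide, at 2.8 to 6.8 CPM against 0.172 to 1.52 CPM (3.00 ± 0.79). Of the gel-forming mucins Muc5b rose, from 16.4 to 28.3 CPM with PBS to 32.3 to 49.8 CPM with HDM (0.89 ± 0.27, adjusted p = 0.0092), while Muc5ac did not pass (0.58 ± 0.55, adjusted p = 0.48). In all 4 of 14 mucus genes passed as higher. Clca1 was at 0.17 to 4.02 CPM against 0 to 0.274 CPM, and with a log2FC of 4.08 ± 3.05 did not pass. Agr2 of the same list did not pass either (1.59 ± 0.93, adjusted p = 0.22). Yet every PBS value was exceeded by 8 HDM libraries for Muc5ac, by 8 for Clca1 and by 9 for Agr2. For the other mucus genes that did not pass, this count ran from 0 (Spdef, Foxa3 and Fcgbp) to 5 (Muc4). Of alternatively activated macrophage genes Arg1 (1.36, adjusted p = 0.11), Chil3 (0.71, adjusted p = 0.16) and Retnla (-0.31, adjusted p = 0.52) did not pass, and 4 of the 16 on that list rose and 1 fell, which was 0 without PBS replicates 9 and 10.

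Among chemokine genes of type 2 and monocyte recruitment 6 of 17 passed as higher and 1 lower. Ccl8 (chr11:82115185-82116799, plus strand), a ligand of CCR8 in the mouse, was at 7.57 to 22.4 CPM (median 11.5) against 0.306 to 3.09 CPM (median 0.735), with log2FC 3.99 ± 0.72 (adjusted p = 5.8e-06), and its highest PBS value was in replicate 6. Ccl12, a monocyte attractant, rose by 1.87. The eotaxin genes Ccl11 (1.28, adjusted p = 0.12) and Ccl24 (-0.15, adjusted p = 0.84) did not pass. Of 7 eosinophil markers 2 passed, and 1 without PBS replicates 9 and 10, among them Prg2, the major basic protein gene, at 0.255 to 0.956 CPM against 0 to 0.289 CPM (2.62 ± 0.54), while Siglecf, which alveolar macrophages share, gave 0.24 (adjusted p = 0.48). The median of these 7 was 1.17, and 0.48 in edgeR. Epx was too low to be tested. Of 12 mast cell and basophil genes 3 passed as higher: the protease genes Mcpt1 (4.34) and Mcpt2 (4.24), with HDM levels of 0.311 to 4.5 CPM and 0.285 to 2.19 CPM, and Ms4a2 (1.72), a chain of the IgE receptor. The other mast cell protease genes Cma1 (1.18), Tpsb2 (0.71), Tpsab1 (0.60), Mcpt4 (-0.16) and Cpa3 (1.27, adjusted p = 0.20), which basophils also carry, did not pass. Gata2 passed as lower (-0.53), and 0 did without PBS replicates 9 and 10.

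The interferon gamma axis had 6 of 18 genes higher. Ifng was at 0.156 to 0.606 CPM against 0 to 0.236 CPM (1.98 ± 0.55, adjusted p = 0.0048), and Cxcl9, which it induces, was at 1.48 to 6.21 CPM against 0 to 0.54 CPM (3.97 ± 1.41, adjusted p = 0.031). With PBS replicates 9 and 10 left out, 3 passed. Of 20 type I interferon response genes 4 passed as higher, against 12.9% of all genes, and 0 without these libraries. Of 16 lymphoid tissue chemokine and lymphotoxin genes 10 passed, led by Cxcl13, a B cell chemokine, at 6.89 to 49.2 CPM against 1.52 to 10.3 CPM (1.93 ± 0.53), and its receptor gene Cxcr5 (1.72 ± 0.51). Of 23 class II and dendritic cell genes 12 passed as higher and 1 lower, such as H2-Ab1 (0.61, adjusted p = 0.019), Cd74 (0.55) and Clec9a of cross-presenting dendritic cells (1.23), and 6 passed as higher and 0 as lower without the same 2 libraries.

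Of 30 innate immune receptor genes and genes tied to the transcription factor SPI1, 23 passed as higher, 8 of them called, with a median log2FC of 0.74. Spi1 itself, which directs myeloid development, was at 46.5 to 70.4 CPM (median 57.9) against 29.9 to 56.7 CPM (median 36.9), with log2FC 0.56 ± 0.15 (adjusted p = 0.0025), and 6 HDM libraries lay above all PBS libraries. Ptafr, the receptor of platelet-activating factor, was at 50 to 77.8 CPM against 17.2 to 39.5 CPM (1.26 ± 0.15, adjusted p = 1.5e-11) with no overlap. Clec7a, the beta-glucan receptor Dectin-1, rose by 1.21. Il1rn, for which the sequence upstream of 1 start is printed above, rose by 1.10 (adjusted p = 9.1e-05). Itgax, the CD11c integrin of alveolar macrophages and dendritic cells, rose by 0.90. The largest change on the list was in Clec4e, the Mincle receptor, at 27.5 to 82.1 CPM against 8.16 to 20.9 CPM (1.87 ± 0.27). Fcgr2b (chr1:170958617-170976547, minus strand), the inhibitory IgG receptor, was among the 3 smallest p-values of genes that rose: it was at 125.3 to 167.8 CPM against 48.2 to 70.3 CPM, log2FC 1.30 ± 0.10 (adjusted p = 1.1e-22).

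Mmp12 (chr9:7344381-7369499, plus strand), the macrophage elastase, was at 218 to 874 CPM (median 503) with HDM and 66.3 to 177.1 CPM (median 122.4) with PBS, with no overlap (2.00 ± 0.27, adjusted p = 8.2e-10). Of 18 matrix proteases 10 passed as higher, including Ctss (1.31 ± 0.14), Mmp9 (1.04), Ctsb (0.82) and Mmp14 (0.76). Of 21 genes of smoke-exposed and lipid-laden macrophages 13 rose, among them Trem2, a lipid receptor (1.22), Cd68 (1.00), Gpnmb (1.00), Spp1 (0.97) and Apoe (0.67). The 1 gene that fell was Marco, a scavenger receptor of alveolar macrophages: 33.7 to 99.5 CPM with HDM against 81.1 to 152.8 CPM with PBS (-1.03 ± 0.28, adjusted p = 0.0037). Of 12 alveolar macrophage markers 4 rose and 1 fell, which was Marco.

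Of 18 complement genes 12 rose and 0 fell, with a median of 0.77. The subunits of C1q rose by 0.91 (C1qa), 1.11 (C1qb) and 0.96 (C1qc), C4b by 0.92, and Cfb of the alternative pathway from 123.6 to 197.4 CPM with PBS to 250 to 417 CPM with HDM (1.14 ± 0.20). C3, the central component, was at 759 to 991 CPM against 709 to 1170 CPM (-0.01 ± 0.11, adjusted p = 0.95).

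Both groups had received DEX. Of 23 glucocorticoid targets 2 passed as higher and 3 lower, against 12.9% and 9.09% of all genes, with a median log2FC of -0.20. Fkbp5, a chaperone that limits the receptor, was at 34.9 to 92.2 CPM against 34.5 to 81.8 CPM (-0.05 ± 0.21, adjusted p = 0.89), and Tsc22d3 (GILZ) at 77 to 101.2 CPM against 81.6 to 274 CPM (-0.45 ± 0.23, adjusted p = 0.15). Zbtb16 gave -0.75 ± 0.48 and the clock gene Per1 -0.68 ± 0.34, and neither passed. PBS.CS parenchyma, without DEX, was not lower in these targets. Its medians were 41.5 CPM for Fkbp5, 141.7 CPM for Tsc22d3 and 20.0 CPM (8.0 to 82.8) for Zbtb16. Those of PBS.CS.DEX without PBS replicates 9 and 10 were 40.4, 94.3 and 9.24 CPM. The effect of DEX itself was not tested. Klf15 fell by 0.80, Klf9 by 0.59 and Errfi1 by 0.46 on the log2 scale, while the kinase gene Sgk1 (0.54) and the metallothionein gene Mt1 (0.63) rose. The receptor gene Nr3c1 was at 135.9 to 201.6 CPM against 169.4 to 226 CPM (-0.17 ± 0.07, adjusted p = 0.059).

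Of 23 genes under the aryl hydrocarbon receptor and NRF2, 3 rose and 2 fell, 1 without PBS replicates 9 and 10. Over all genes 12.9% passed as higher and 9.09% as lower. Cyp1a1 (chr9:57687928-57703824, plus strand) was at 3.61 to 144.8 CPM (median 27.3) with HDM against 12.5 to 662 CPM with PBS, log2FC -1.94 ± 0.53 (adjusted p = 0.0037). The groups overlapped broadly, and 1 HDM library, replicate 8, lay below all PBS libraries. Without PBS replicates 9 and 10 it gave -1.38 (adjusted p = 0.070), without HDM replicate 8 as well -1.05 (adjusted p = 0.19), and with the run of library codes as a term -1.89 (adjusted p = 0.0027). Slc7a11, the cystine transporter, rose by 0.97 with no overlap. Nqo1, at 5.84 to 23.5 CPM against 7.51 to 34.9 CPM, did not pass (-0.68, adjusted p = 0.14).

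Structural genes of the lung moved little. Of 30 collagen and matrix genes 7 passed as higher and 2 lower, and 0 were called. Without HDM replicate 8, 4 passed as higher, and without PBS replicates 9 and 10, 1 passed as lower. Col3a1 was at 197.5 to 776 CPM against 96.7 to 390 CPM (0.73 ± 0.18, adjusted p = 0.0012), with the highest value in HDM replicate 8, and without that library and PBS replicates 9 and 10 it gave 0.42 (adjusted p = 0.12). Col1a1 did not pass (0.33, adjusted p = 0.16). Of 16 smooth muscle contractile genes 3 passed as higher: Kcnmb1, a potassium channel subunit, at 3.15 to 4.73 CPM against 1.48 to 2.31 CPM (1.06 ± 0.36), Acta2 (0.86) and Tagln (0.76). Of 26 cell cycle genes 0 passed as higher and 1, Bub1, as lower (-0.65, adjusted p = 0.015), while 8 passed as lower without HDM replicate 8, whose summed level was the highest at 960 CPM, and 2 with PBS replicate 6 also left out, whose sum was 697 CPM.

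Alveolar type I markers had a median log2FC of -0.30, with 0 of 12 passing as higher and 2 as lower, Cav1 (-0.47) and Lmo7 (-0.59), and 1 as lower without PBS replicates 9 and 10. They summed to 8450 to 10200 CPM (median 9620) against 10000 to 13400 CPM (median 11800), and for Emp2 (-0.31) and Spock2 (-0.30), which did not pass, 9 HDM libraries lay below all PBS libraries. Alveolar type II markers had 1 lower of 13, Abca3 (-0.31, adjusted p = 0.031), and Sftpc was at 10800 to 17700 CPM against 11300 to 20300 CPM. Of 10 club cell markers Scgb3a1 rose (1.26) and 3 fell, among them Cckar (-0.48), with a median of -0.29 and summed medians of 26900 CPM with HDM against 35500 CPM with PBS. Of 17 endothelial markers 1 rose and 3 fell, among them Ednrb (-0.59) and Apln (-0.69), both expressed in capillaries, and 0 rose without PBS replicates 9 and 10. Beside these alveolar, club cell and endothelial counts, 12.9% of all genes passed as higher and 9.09% as lower. Ciliated cell (12), fibroblast (12), cardiac muscle (12), cartilage (8), adipose (8) and mesothelium (6) markers had 0 passed in either direction. Krt14 of squamous and basal epithelium fell (-1.95, adjusted p = 0.033) at 0 to 0.438 CPM against 0.0912 to 0.986 CPM, the 1 gene of its list to pass as lower, with 0 without PBS replicates 9 and 10 and 2 without HDM replicate 8. The thyroid list held Dio1, which rose by 2.00, and the thymocyte list Cd1d1 (0.78), with Rag1 and Rag2 too low.

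Asgr2 (chr11:70092644-70106187, plus strand), a subunit of the asialoglycoprotein receptor, had the largest fall that the naming rule reached. It was at 0.254 to 1.75 CPM (median 0.857) with HDM and 2.8 to 6.43 CPM (median 4.39) with PBS, with no overlap (-2.54 ± 0.26, adjusted p = 1.3e-14). Gria1 (chr11:57011387-57330244, plus strand), an AMPA glutamate receptor subunit, was at 1.57 to 5.57 CPM against 5.22 to 18.2 CPM (-1.67 ± 0.23, adjusted p = 2.7e-09), with 9 HDM libraries below all PBS libraries. Fgfbp1, which releases fibroblast growth factors from the matrix, fell by 0.89 with no overlap (22.6 to 34.5 CPM against 39.7 to 61.4 CPM). Of 6 erythroid genes 5 were called lower, against 0.427% of all genes. Hba-a2, an alpha globin gene, was at 48.8 to 463 CPM against 249 to 860 CPM (-1.36 ± 0.35, adjusted p = 0.0020), and Alas2 of haem synthesis at 1.7 to 20.4 CPM against 9.3 to 41.5 CPM (-1.45 ± 0.38). The summed erythroid level was 262 to 1990 CPM against 1180 to 2890 CPM, so the groups overlapped, and how much blood each piece of tissue held was not tested. Globin genes have near-identical copies, so they are uncertain singly.

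**Figure D4:**
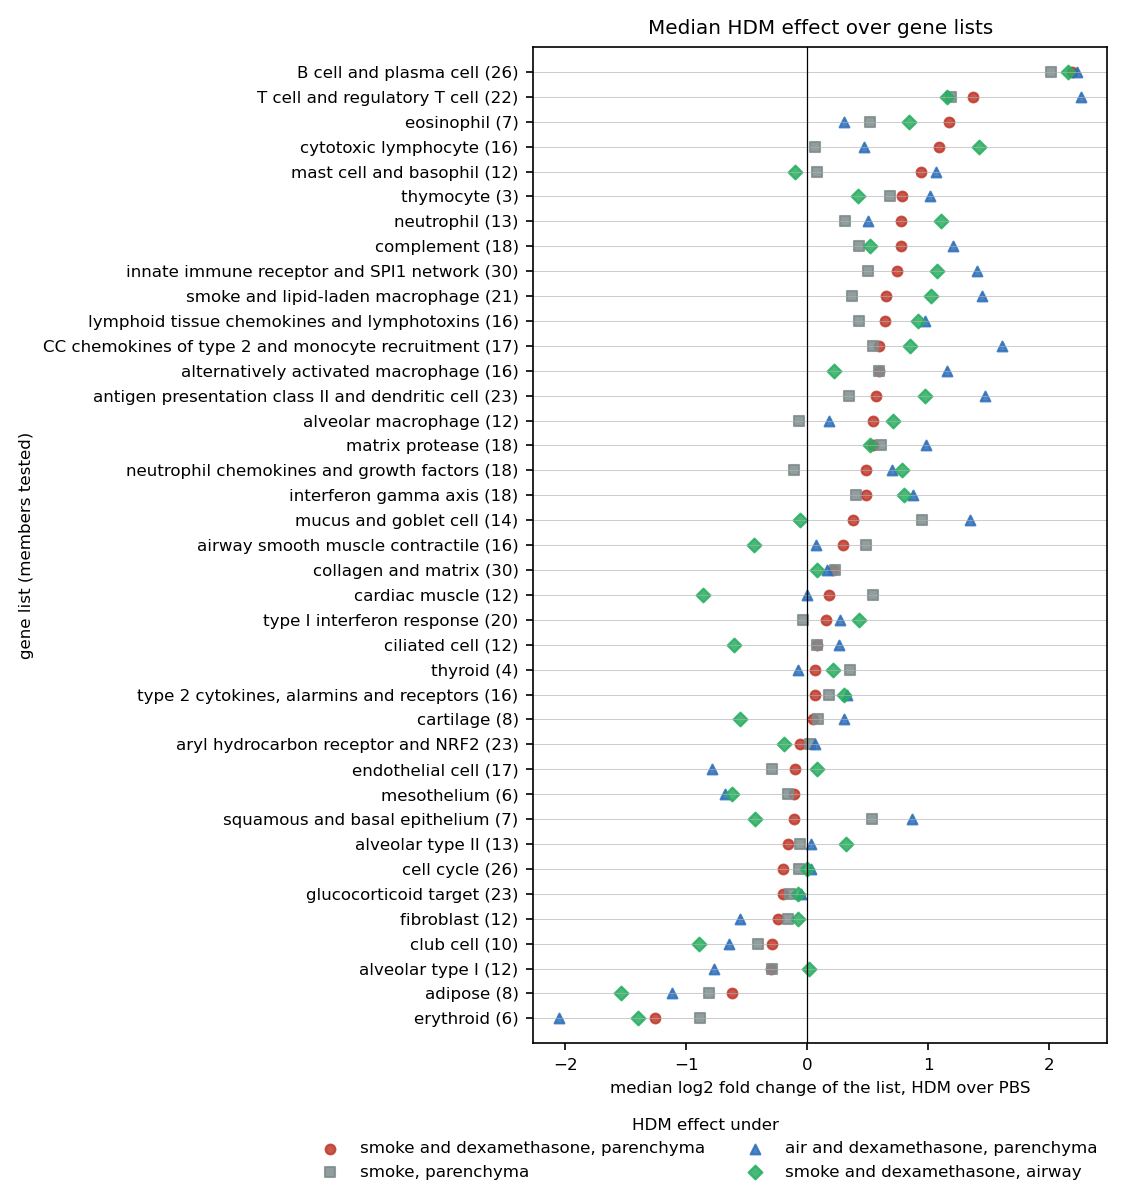
Median log2FC over the tested members of each gene list (rows) for 4 HDM effects: parenchyma under smoke with DEX, under smoke without DEX and under air with DEX, and airway under smoke with DEX. B and plasma cell genes lie near 2 in all 4 effects (2.19, 2.01, 2.23 and 2.15), erythroid genes are below 0 in all 4, and type 2 cytokine genes near 0 (0.06) in the first.

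Whether DEX changed the HDM effect under smoke was tested as a difference of effects, with DEX less without. Of 18250 genes 0 passed (0.0%), with a smallest adjusted p of 0.21 in limma-voom, while 1431 genes (7.84%) had an unadjusted p under 0.05. The edgeR quasi-likelihood test passed 0 genes and DESeq2 passed 2 as higher and 5 as lower. With weights for library quality 90 and 69 passed. Values stood side by side as follows. Over the 611 genes called higher the median log2FC was 1.70 with DEX and 1.24 without, and over the 78 called lower -1.30 and -0.76, which the choice of genes by the effect with DEX favours. Il17a rose by 6.47 with DEX and by 6.65 without, a difference of -0.18 (95% interval -2.35 to 2.00), Igkc by 4.61 and 4.22 (difference 0.40, -0.51 to 1.30), Ighg1 by 7.96 and 6.46 (1.5, -0.19 to 3.19) and Mmp12 by 2.00 and 1.63 (0.37, -0.40 to 1.14). For these genes the interval held 0 and a difference of the size of its bounds, so they are not shown to act alike. Spi1 gave 0.56 with DEX and 0.10 without, a difference of 0.47 (0.06 to 0.88), which did not pass over all genes. Cyp1a1 gave -1.94 and 0.09, Arg1 1.36 and 3.13, and neither difference passed. Cytotoxic lymphocyte genes had a median of 1.09 with DEX, which was 0.75 when PBS replicates 9 and 10 were left out, and of 0.06 without DEX.

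Smoke was compared with air, both with DEX, in the same way. Here 952 of 18250 differences passed as higher (5.22%) and 1191 as lower (6.53%), higher meaning a larger log2FC under smoke. Of the 611 genes called higher under smoke 543 (88.9%) were also called higher under air, which had 1558 such genes, and 45 of the 78 called lower (57.7%). Their median log2FC under air was 2.41, against 1.70 under smoke, and 97 of the 611 had a difference that passed as lower and 5 as higher. Over all tested members of a list, called under smoke or not, the difference passed as lower for 14 of 23 class II and dendritic cell genes, 13 of 30 innate and SPI1 genes, 10 of 21 smoke and lipid-laden macrophage genes, 10 of 18 complement genes and 7 of 18 matrix proteases. For Mmp12 the log2FC was 2.00 under smoke and 5.33 under air, a difference of -3.33 ± 0.39 (adjusted p = 2.5e-11). Both PBS and HDM libraries differed in level: Mmp12 was at 66.3 to 177.1 CPM in smoke PBS and 21.4 to 47.8 CPM in air PBS, and at medians of 503 and 1240 CPM with HDM. Of the immunoglobulin segments 1 had a difference that passed and of the constant genes 1, Igha (3.16 and 5.85, a difference of -2.70 with adjusted p = 2.6e-07). These counts do not show equal effects. The median log2FC over the segments was 3.8 under smoke and 5.07 under air, and over the constant genes 3.27 and 5.86. Whether these medians differ was not tested. On the B and plasma cell list the difference passed as lower for 3 of 26 genes, among them Jchain (-2.13, adjusted p = 4.8e-04), and of the T cell receptor segments for 7 of 41. Ighg1 (7.96 and 9.37, adjusted p = 0.42) and Il17a (6.47 and 7.94, adjusted p = 0.54) did not pass.

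Pigr (chr1:130826684-130852249, plus strand), the epithelial receptor that carries IgA to the lumen, had the smallest p among falling differences. It was at 620 to 1330 CPM against 511 to 987 CPM under smoke (0.56 ± 0.15) and at 1060 to 2120 CPM against 101.6 to 190.5 CPM under air (3.46 ± 0.14), a difference of -2.90 (95% interval -3.32 to -2.49, adjusted p = 3.2e-24). The HDM libraries of the 2 settings overlapped in level and the PBS libraries did not. Lemd1 showed the same layout, 9.44 to 13.2 CPM against 6.93 to 12.3 CPM under smoke and 6.39 to 16.2 CPM against 0.208 to 0.677 CPM under air (difference -4.45 ± 0.34). Slc6a20a, an amino acid transporter, gave -0.27 under smoke and 2.13 under air. The 3 higher differences with the smallest p were in genes with lower log2FC under air: Cdh13, a cadherin, gave -0.25 and -1.46 (difference 1.21 ± 0.19), Epb41l3 -0.29 and -1.10 (0.81 ± 0.11) and A330009N23Rik -0.04 and -1.11 (1.07 ± 0.18). Cfb followed Mmp12, with 1.14 and 3.49 (difference -2.35 ± 0.28, adjusted p = 1.3e-10).

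**Figure D5:**
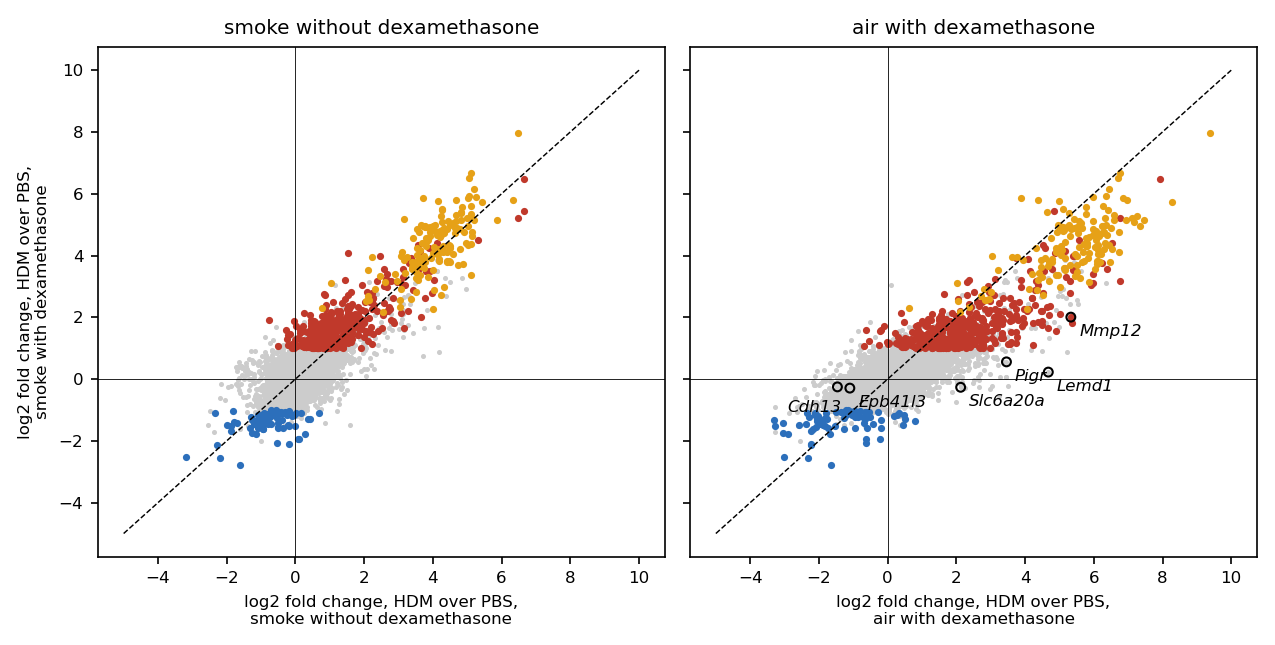
log2FC of HDM under smoke with DEX (y axis) against that under smoke without DEX (x axis, left panel) and under air with DEX (x axis, right panel), per gene, in parenchyma. Genes called in the y axis effect are coloured, with immunoglobulin genes in yellow, the others called higher in red and those called lower in blue, 6 genes that differed between the effects are ringed on the right, and the dashed line marks equality. On the right Pigr (0.56 and 3.46) and Mmp12 (2.00 and 5.33) lie below the line.

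In the airways of mice with the same exposures 453 of the 611 genes (74.1%) were also called higher and 42 of the 78 (53.8%) lower, out of 838 and 376 calls there. The difference between tissues, parenchyma less airway, passed as higher for 44 genes (0.241%) and as lower for 1 (0.00548%), and these counts moved with the method and the libraries: edgeR passed 402 and 10, a fit with the run of library codes as a term 567 and 38, and without PBS replicates 9 and 10 of the parenchyma 1 passed in each direction. Of the 689 called genes 4 had a difference that passed. Kcnab1, a potassium channel subunit, was at 1.2 to 2.82 CPM against 0.192 to 0.506 CPM in parenchyma (2.5 ± 0.31) and at 1.59 to 4.05 CPM against 0.943 to 2.78 CPM in airway (0.70 ± 0.21), a difference of 1.80 ± 0.37 (adjusted p = 0.020, and 0.081 without PBS replicates 9 and 10). Pcdh7, a protocadherin, rose by 1.10 in parenchyma and gave -0.03 in airway (difference 1.13 ± 0.29, adjusted p = 0.047, and 0.17 without these 2). D730001G18Rik was low in both, at 0.118 to 0.519 CPM against 0 to 0.21 CPM in parenchyma (1.73) and gave -0.98 in airway (difference 2.71 ± 0.55). Slpi, a leukocyte protease inhibitor, rose less in parenchyma, by 1.53 (114.4 to 313 CPM against 42.7 to 75.8 CPM), than in airway, by 2.91 (150.9 to 537 CPM against 27.1 to 55.6 CPM), a difference of -1.37 ± 0.29 (adjusted p = 0.023, and 0.10 with no filter on low counts). Ighg1 rose by 7.96 and 7.81, and Il17a by 6.47 and 5.75, in parenchyma and airway, and these differences did not pass (adjusted p = 0.96 and 0.84).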

How the data were processed

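RNA from dissected parenchyma was sequenced by the authors and aligned to mm10, and the submitters' processing notes name bcl2fastq 2.20.0.422, STAR 2.5.1b, RSEM 1.2.31 and kallisto 0.44.0. The authors deposited estimated counts per gene, unscaled, for all 203 libraries, and which tool made that table is not given in the sources used here. Of non-zero values 20.3% were not whole, so all were rounded. Of 43346 identifiers 42462 matched GENCODE M21 symbols on GRCm38 (23106 with the same version), so coordinates follow M21.

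Genes were kept (18250) where at least 9 of the 160 libraries at 11 weeks reached the CPM to which 10 counts come in a library of median depth. Following the study's methods, TMM factors (edgeR 4.0.16), voom and a linear fit with 1 mean for each of 16 groups (limma 3.58.1, R 4.3.3) gave all tests, including differences of effects as interaction contrasts, adjusted by Benjamini-Hochberg over all genes. The code was tested on simulated data. Intervals are 95%, and those on counts cover counting error only.

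The 39 gene lists (625 entries), the tests and the comparison itself were chosen with earlier results of these data known, and the SPI1 genes were followed by the study on other libraries of this series. Lists were described by counts and medians, with no set test. Named genes were the 6 largest changes in each direction among called genes with no overlap and at least 1 CPM, the 3 smallest p-values in each direction, the 2 largest passing members of each list with its defining genes, the 3 differences with the smallest p in each direction for each interaction, Spi1, Il1rn, Ptafr, Itgax and Clec7a, and genes with a printed promoter. Further list members are named only to say what a count holds, after their values were seen. The other settings tried were DESeq2 1.42.0, its size factors, the quasi-likelihood test of edgeR, other filters, fits of fewer libraries, the run of 20 library codes as a term, quality weights and omitted libraries.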

Additional observations from a re-analysis of the deposited data

Results flagged for a closer look

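Within groups of 10 libraries, 31 of 266 checks (11.7%) found a highest or lowest library far from the rest, where chance gives about 5%, and 14 of the 31 were in HDM replicate 8. There Acta2 was at 156.8 CPM (others 38.2 to 66.1), Col3a1 at 776 CPM (197.5 to 344), Col1a1 at 219 CPM, Tnc at 148.8 CPM, Arg1 at 18.8 CPM, Il33 at 417 CPM, Fkbp5 at 92.2 CPM, Zbtb16 at 20.6 CPM, Mki67 at 95.4 CPM and Bub1 at 19.2 CPM, all the highest of the group. Clec7a at 215 CPM (418 to 564), Chil3 at 1470 CPM (2570 to 4540), C3 at 759 CPM and Ednrb at 22.4 CPM were the lowest.

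PBS replicate 6 was the highest of its group for Timp1 (160.1 CPM, others 8.47 to 29.9), Tnc (164.2 CPM, others 10.5 to 41), Arg1 (12.4 CPM, others 1.00 to 2.27), Il33 (334 CPM, others 70 to 146.2), Bub1 (15.5 CPM), Ccl8 (3.09 CPM), Ccl24 (4.03 CPM), Ccl11 (3.27 CPM) and Il13 (0.0719 CPM, the sole PBS library with a count). Tnc, Arg1, Il33 and Bub1 were thus far from the rest in the same direction in 1 library of each group.

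PBS replicate 9 was lowest for Jchain (12.3 CPM, others 28.8 to 55.3) and Slc7a11 (11.6 CPM) and highest for Il17f (0.498 CPM). Single values stood apart in PBS replicate 3 (Apln, lowest at 15.7 CPM), PBS replicate 4 (Ly6g at 0.788 CPM and Cpa3 at 0.972 CPM), PBS replicate 5 (Clca1 at 0.274 CPM) and HDM replicate 9 (D730001G18Rik at 0.519 CPM).

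The HDM effect differed between smoke and air, by the interaction contrast, for Pigr (-2.90), Lemd1 (-4.45), Slc6a20a (-2.39), Cdh13 (1.21), A330009N23Rik (1.07) and Epb41l3 (0.81). Between parenchyma and airway it differed for D730001G18Rik (2.71), Kcnab1 (1.80), Pcdh7 (1.13) and Slpi (-1.37).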

How the results depend on the processing

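No paired analysis was possible because the labels number no replicates and do not say what a run of 20 library codes shares. Deviations of libraries of the same run correlated across groups (mean 0.193, against -0.0218 for other runs), from -0.251 to 0.756 between HDM and PBS libraries, and 1 HDM library correlated best with its own run. With the run as a term 3.65% of genes were called higher and 0.504% lower. All 611 genes called higher and all 78 called lower kept their direction under edgeR, DESeq2, its size factors, no filter, the run term, quality weights and every omission of the libraries named above (chosen after seeing the data). These genes were chosen for a large change in the same libraries, so a kept direction is a weak check. Without PBS replicates 9 and 10, 407 and 48 were called again, and 411 and 43 with HDM replicate 8 also out. Of the named genes 96 passed, and 64 of these passed under every alternative that tested them. The values that follow are shares of the 18250 genes tested in the fit reported. A CPM of at least 10 in 9 libraries, which tests fewer genes, called 1.05% higher and 0.0986% lower, with 8.44% passing as higher and 0.0% differing between tissues as higher. Quality weights gave 0.729% called lower, 19.7% and 15.7% passing as higher and lower, and differences of 0.493% and 0.378% with DEX, 10.5% and 11.6% with smoke and 4.19% and 0.378% between tissues. Omitting PBS replicates 9 and 10 gave 8.52% and 5.59% passing and 0.00548% of differences between tissues as higher. With HDM replicate 8 also omitted 0.279% were called lower, 8.37% and 5.33% passed and 0.00548% of differences between tissues were higher. Dropping single libraries gave 2.67% (without PBS replicate 9) to 3.69% called higher and 0.362% to 0.548% lower. For the difference with DEX, DESeq2 passed 0.011% and 0.0274%, and no filter 0.00548% as higher. The difference between tissues moved under most settings, and the cause was not tested: 2.2% and 0.0548% in edgeR, 2.92% and 0.186% in DESeq2, 0.0493% higher with its size factors, 3.11% and 0.208% with the run term, 0.0219% and 0.0% with no filter, 1.34% and 0.0274% without HDM replicate 8 and PBS replicate 6, 0.0219% lower without HDM replicate 8 alone and 0.0767% higher without 1 shallow HDM.AIR.DEX library. Small log2FC values that changed sign, none past the threshold in the fit reported, were, without PBS replicates 9 and 10, A330009N23Rik 0.01, Il4 0.05, Car4 0.02, Il5 -0.08 and Fkbp5 0.11, and with HDM replicate 8 also out A330009N23Rik 0.05, Il4 0.11, Car4 0.07 and Il5 -0.20. Without HDM replicate 8 C3 gave 0.00, and with PBS replicate 6 also out A330009N23Rik gave 0.02, Il4 0.04 and Ccl24 0.05. Under quality weights A330009N23Rik and Ccl24 gave 0.05.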
